A study of Mus musculus with 20 samples.

Results

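Small nucleolar RNAs (snoRNAs) and small Cajal body RNAs (scaRNAs) were examined in livers in which the RNA-binding protein HuR had been knocked down. Members were chosen by their own level, as genes annotated snoRNA or scaRNA whose mean over all livers of a table was at least 1 TPM (a read count scaled by gene length and by the size of the library). This gave 211 of the 1558 mouse genes of these types in wild type (WT) livers and 144 of the 991 human genes in the livers of humanized mice. In the WT livers 40 members had a C/D name (Snord), 18 had an H/ACA name (Snora), 18 were annotated scaRNAs and 135 carried other names, mostly Gm numbers. In the humanized livers 54 had a C/D name, 56 an H/ACA name, 11 were scaRNAs and 23 had other names. The mean level chose the members and is therefore given only as a description. Snora36b, at 1.00 TPM, was the last WT member inside the limit and Gm25913, at 0.964 TPM, the first outside, while in the humanized livers SNORD39 entered at 1.00 TPM and SNORD91B stayed out at 0.963 TPM.

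The WT groups were C57BL/6 male mice given adenovirus carrying an HuR shRNA (WT HuR KD, n = 6) or LacZ (WT LacZ, n = 6). The humanized groups (Humanized HuR KD, n = 4, and Humanized LacZ, n = 4) were immunodeficient TK-NOG mice, in which a viral thymidine kinase driven by the albumin promoter let ganciclovir, given at 8 to 9 weeks of age, remove host hepatocytes before 1000000 primary human hepatocytes were transplanted. They were used 8 to 12 weeks after transplantation with human albumin above 0.5 mg/ml. The paper describes these livers as chimeric, with mouse hepatocytes beside the human ones, and the host's cells that are not hepatocytes remained too. The values described here are those of the human genes. Every mouse received 2000000000 plaque-forming units, and livers were taken at day 7 after a 4 h fast, from 1 mouse each. The knockdown virus carried an shRNA against mouse HuR in WT mice and against human HuR in humanized mice. The LacZ mice received the control virus. The labels do not tie a humanized liver to a hepatocyte donor, and in bulk liver fewer cells of a type and less RNA per cell cannot be told apart.

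snoRNAs guide chemical modification of other RNAs, mostly ribosomal RNA. C/D snoRNAs carry C and D box motifs near their ends and guide ribose methylation by fibrillarin, while H/ACA snoRNAs end in an ACA motif and guide pseudouridylation by dyskerin. scaRNAs use the same boxes, reside in Cajal bodies and guide modification of spliceosomal small nuclear RNAs. A small set, among them U3 (SNORD3), U8 (SNORD118), U13 (SNORD13), U14 (SNORD14) and U17 (SNORA73), is known for roles in pre-ribosomal RNA processing rather than only for modification. In vertebrates most snoRNAs are not transcribed on their own but are released from introns of host genes, many of which encode ribosomal proteins or other parts of the translation apparatus, and the proteins that bind them protect the released RNA from exonucleases.

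The WT results below turn on a few RNAs, and for 5 of them the DNA-sense sequences were read from the GENCODE M21 transcripts (GRCm38) and are shown 5′ to 3′. Capitals mark the C box letters TGATGA within the first 20 bases and the D box letters CTGA within the last 20 bases, or the letters ACA followed by 2 to 4 bases at the end. In RNAs sorted as having the ACA end only ACA is marked, so the TGATGA that starts Gm25848 is left in lower case. Snord65 and Snord49a (chr11:62604515-62604586 and chr11:62603450-62603521, plus strand) lie in introns of the same noncoding host, 2410006H16Rik, and with Snord104 (chr11:106500993-106501062, plus strand), for which no host gene was found, they are among the RNAs that stood highest in 1 liver. Snora73b (chr4:132352322-132352526, minus strand) lies in an intron of Snhg3 and is the most abundant member. Gm25848 (chr16:32243712-32243855, minus strand), in an intron of Fbxo45, moved the other way in that liver.
Snord65: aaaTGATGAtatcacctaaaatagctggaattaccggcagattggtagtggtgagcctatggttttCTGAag
Snord49a: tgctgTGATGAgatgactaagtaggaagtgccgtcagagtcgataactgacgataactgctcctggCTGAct
Snord104: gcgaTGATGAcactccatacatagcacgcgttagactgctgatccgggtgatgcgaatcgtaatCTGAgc
Snora73b: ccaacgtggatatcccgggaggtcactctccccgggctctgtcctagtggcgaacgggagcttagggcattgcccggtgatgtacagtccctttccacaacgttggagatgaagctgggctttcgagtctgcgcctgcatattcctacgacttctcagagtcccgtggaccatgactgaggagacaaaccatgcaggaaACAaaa
Gm25848: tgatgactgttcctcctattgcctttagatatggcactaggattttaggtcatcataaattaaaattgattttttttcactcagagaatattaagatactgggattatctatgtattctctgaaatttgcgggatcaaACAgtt

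These letters sorted the mouse members further than their names did. Of the 18 Snora-named members all 18 had the ACA end, and of the 40 Snord-named members 24 had both C and D box letters and 1 had both kinds. Among the 135 members with other names 74 had the ACA end and 20 had the C and D box letters, so the unnamed members were mostly of the H/ACA form. Over all 1558 annotated genes 43.8% had the ACA end alone and 19.7% the C and D box letters alone. A match is a description of the letters, and 40 of the members with other names had neither pattern. Of the members, 6 had the same sequence as another annotated gene of these types, and their reads cannot be assigned to 1 copy.

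Depth differed between livers, and short, low genes are where it matters. Counts recovered from the WT values summed to 29787951 to 44668975 per liver in 10 livers, to 12960582 in HuR KD 6 and to 1424010 in LacZ 2, where 1 read on a gene of 130 bases was worth 13.04 TPM. Of the 211 WT members 112 were at 0 in LacZ 2, against 7 to 25 in each of the other 11 livers. The humanized livers held 2671541 to 20311105 counts, and the deepest, HuR KD 4 and LacZ 2, had a Pearson r of 0.965 with each other over the genes tested, against 0.866 to 0.931 for the other pairs. HuR mRNA was lower with knockdown in both tables. Elavl1 was 3.72 to 5.62 TPM in WT HuR KD livers and 8.58 to 10.7 TPM in WT LacZ livers, a log2 fold change of −0.83 ± 0.09 (SE, limma, adjusted p = 0.00105). Human ELAVL1 was 2.37 to 4.05 TPM against 4.77 to 6.17 TPM, a log2 fold change of −0.59 ± 0.17 (SE, limma, adjusted p = 0.214). The 4 human ELAVL1 values with knockdown did not overlap the 4 LacZ values (two-sided exact permutation p = 0.029, the smallest that 4 against 4 can give). Summed hepatocyte markers were 64367 to 82572 TPM in WT livers and 39913 to 89111 TPM in humanized livers. In humanized livers the human Kupffer cell list summed to 0.254 to 4.83 TPM, with CLEC4F, MARCO and VSIG4 at 0 in all 8 livers, and the T, NK and B cell list to at most 0.0997 TPM. In WT livers the Kupffer cell list summed to 259 to 451 TPM with knockdown and 369 to 504 TPM with LacZ, and its part in the results was not tested.

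A few abundant RNAs carried most of the signal. The 5 highest members held 32.9% of the summed mean level in WT livers and 74.8% in humanized livers, and the 20 highest held 76% and 93.6%. The median member was at 7.54 TPM in WT and 3.84 TPM in humanized livers. Most members therefore rested on few reads. In WT livers 72 of 211 averaged under 5 reads per liver and 88 were above 0 in every liver, and in humanized livers 79 of the 126 members with recovered reads averaged under 5 reads and 38 of 144 were above 0 in every liver. Without its highest liver the mean of 12 WT members and of 41 humanized members would have been under 1 TPM.

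The highest WT member was Snora73b, a copy of the U17 RNA that acts in pre-ribosomal RNA cleavage. Its level was 1136, 1837 and 2134 TPM (lowest, median and highest) in HuR KD livers and 1439, 1812 and 2011 TPM in LacZ livers. The groups overlapped almost entirely and the log2 fold change was −0.08 ± 0.16 (SE, limma, adjusted p = 0.865). Gm22486, which overlaps an exon of Ptcd3 and has the RefSeq symbol Snord94, was 985, 1292 and 4194 TPM with knockdown and 1248, 1349 and 1572 TPM with LacZ. The value of 4194 TPM was that of HuR KD 6, and the other 5 knockdown livers were within or below the LacZ range. Gm22442, a scaRNA with the ACA end, was the steadiest of the 5, at 1314, 1550 and 1674 TPM against 1387, 1529 and 1634 TPM. Snord104, a C/D RNA, was 381, 705 and 7038 TPM against 540.5, 683 and 824 TPM, again with HuR KD 6 far above every other liver. Gm25395, a scaRNA in an intron of Atg16l1, was 850.2, 1363 and 1569 TPM against 1005, 1143 and 1259 TPM. None of the 5 passed the test, and their limma log2 fold changes ran from −0.08 to 0.64.

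In humanized livers the highest member was SNORD3A, a U3 gene. It was 1535, 1975, 3172 and 3365 TPM in HuR KD 1 to 4 and 2432, 2017, 3353 and 1573 TPM in LacZ 1 to 4. Both groups spanned the same range, with a log2 fold change of 0.08 ± 0.31 (limma, adjusted p = 0.954). U3 has near-identical copies, so reads may be shared between SNORD3A, SNORD3C (189 TPM on average) and the SNORD3B genes. SNORA73B, the human U17 copy, was 1483, 1435, 2351 and 1731 TPM with knockdown and 2331, 1884, 2332 and 2125 TPM with LacZ. Of its knockdown values 3 lay below all 4 LacZ values, but HuR KD 3 was the highest of all, and the log2 fold change was −0.33 ± 0.18 (limma, adjusted p = 0.532). SNORD17 was 1474, 1470, 1902 and 2091 TPM against 1675, 1903, 2377 and 1870.2 TPM. SCARNA7, the highest scaRNA, was 480, 531, 628 and 970 TPM against 563, 850.5, 843 and 656 TPM, and SNORA53 was 461, 411, 562 and 608 TPM against 438, 713, 732 and 559 TPM. The groups overlapped for all 3, and none passed the test (limma, adjusted p = 0.759 for SNORD17, 0.819 for SCARNA7 and 0.710 for SNORA53).

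**Figure D1:**
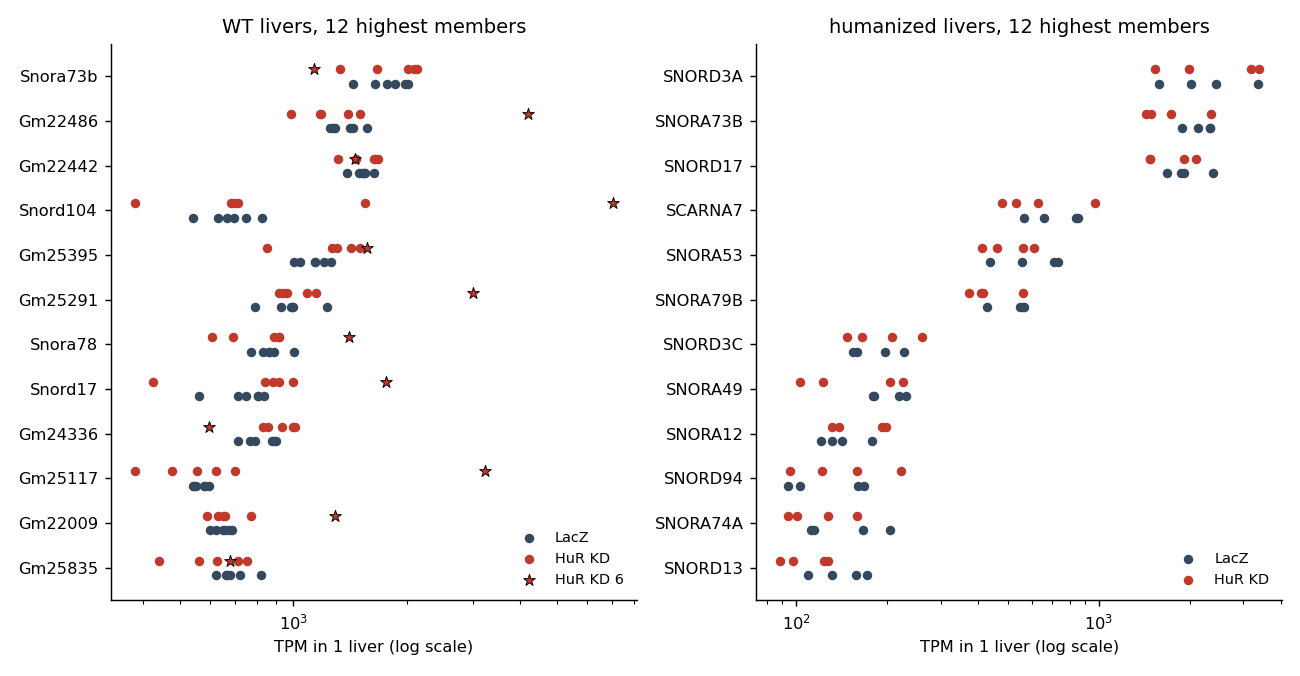
TPM on a log scale of the 12 highest members in each table, with 1 point per liver (left, WT; right, humanized). HuR KD and LacZ points overlap for the members described above, apart from HuR KD 6, whose points for Gm22486 (4194 TPM), Snord104 (7038 TPM) and Gm25117 (3219 TPM) stand to the right.

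The summed level of all members did not separate the groups. In WT livers the sum was 17954 to 22395 TPM in HuR KD 1 to 5, 50433 TPM in HuR KD 6 and 18757 to 21278 TPM in the 6 LacZ livers. The ratio of the group means was 1.27 with all livers and 1.01 without HuR KD 6, so the excess in the mean came from 1 liver. In humanized livers the sum was 7652 to 11595 TPM with knockdown and 9616 to 12348 TPM with LacZ, a ratio of 0.916. Relative to protein-coding genes alone that ratio was 0.966. The H/ACA sum was 3294, 3106, 4534 and 4103 TPM in HuR KD 1 to 4 against 4281, 4260, 4780 and 4548 TPM in LacZ 1 to 4, a ratio of 0.841, and the C/D sum had a ratio of 0.977. Sums over chosen members were not tested.

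**Figure D2:**
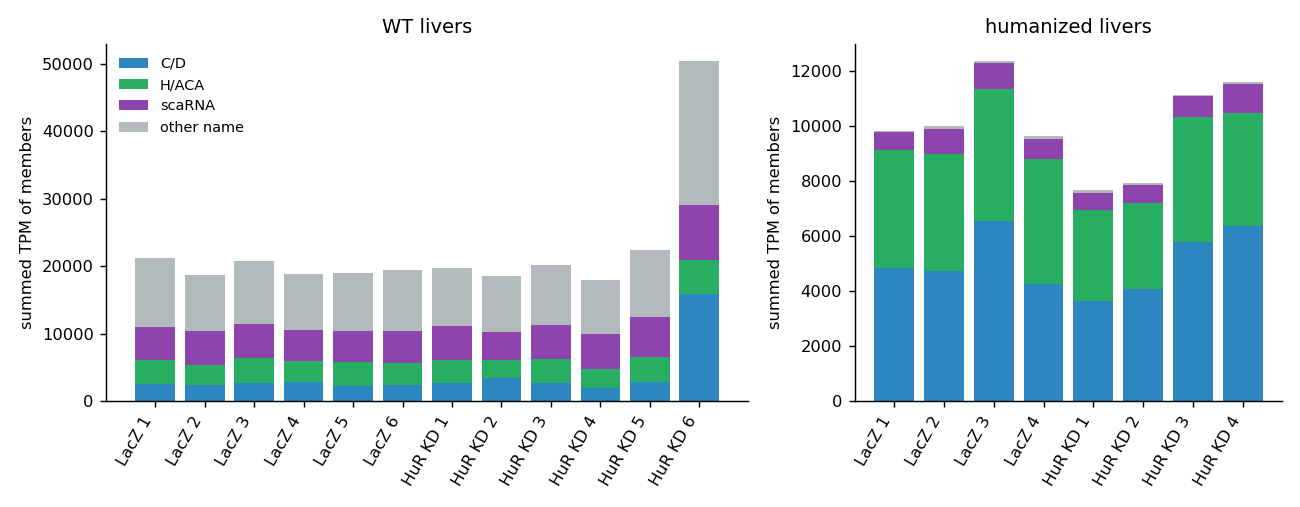
Summed TPM of the members in each liver, stacked by class (left, WT; right, humanized; linear axes from 0). HuR KD 6 reaches 50433 TPM, of which 15926 TPM is the C/D class, while the other WT livers lie between 17954 and 22395 TPM.

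With all WT livers, 14 of 211 members (6.64%) were higher with HuR knockdown at an unadjusted p under 0.05, below the 9.09% of all 15090 genes tested that were higher. The 1 member that was lower made 0.474%, against 6.94% of all genes. No member passed after adjustment (limma, Benjamini-Hochberg over all genes), against 0.888% of all genes, and no member had groups that did not overlap, against 2.49% of all genes. By class 4 of 40 C/D members, none of 18 H/ACA members, none of 18 scaRNAs and 10 of 135 members with other names were higher. The median log2 fold change of the members was 0.27 against 0.03 for all genes, and 160 members (75.8%) were above 0 against 56.8% of all genes.

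That upward shift moved with the livers that stood apart. Of the 14 members called higher 13 were at 0 in LacZ 2, the shallowest liver, and 9 averaged under 5 reads per liver. Without HuR KD 6 the median was 0.11, with 12 members higher (12.4% of all genes were) and 3 lower (6.49%), and 1 passed after adjustment (2.47%). Without HuR KD 6 and LacZ 2, an alternative added after seeing the data, the median was 0.02 against 0.04 for all genes. There 11 members were higher against 15.4% of all genes, 8 were lower against 7.79%, and 2 passed after adjustment against 5.24%. Both were low, at 1.08 TPM for Gm25896 and 2.19 TPM for Gm27653. Over all livers Gm25896 averaged 1.62 TPM with knockdown and 0.547 TPM with LacZ. It therefore met the limit of 1 TPM only through the group in which it was high. That choice favours its adjusted p-values, here and in the other fits. Gm25896 lies in an intron of Ltn1 and had 2 to 6 reads in each of HuR KD 1 to 5 and 1 to 3 reads in each of the LacZ livers other than LacZ 2, with a log2 fold change of 0.81 in that fit (limma, adjusted p = 0.0327). Gm27653, in an intron of Ndrg3, had 5 to 9 reads in HuR KD 1 to 5 and 1 to 5 reads in the same LacZ livers, with a log2 fold change of 0.79 (limma, adjusted p = 0.0487). Both were at 0 in HuR KD 6 and in LacZ 2. All livers were also kept but weighted by their scatter around the fit (limma array weights). HuR KD 6 and LacZ 2 then weighed only 0.171 and 0.139, against 0.882 to 2.20 for the other livers. In that fit 4 members passed after adjustment against 11.4% of all genes. They were Gm24727 (adjusted p = 0.0176), Gm25896 (0.0183), Gm24241 (0.0345) and Snord92 (0.0401), all higher with knockdown. Of these Gm24241 averaged 2.40 TPM and was at 0 in LacZ 2.

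The member with the smallest p over all WT livers was Gm24727, an RNA with the ACA end in an intron of Gsr, the glutathione reductase gene. It was 70.5, 81.5 and 111 TPM in HuR KD livers and 47.1, 61.1 and 78.1 TPM in LacZ livers. The groups overlapped only through LacZ 1, and the log2 fold change was 0.44 ± 0.13 (limma, adjusted p = 0.112, two-sided exact permutation p = 0.0065). It was also the only member called higher that was detected in LacZ 2, and without both livers it stood at 0.28 (limma, adjusted p = 0.0883). With array weights it was 0.36 and passed (limma, adjusted p = 0.0176). Snord92, a C/D RNA in an intron of Wdr43, was 2.76, 3.79 and 4.77 TPM against 0, 1.23 and 3.33 TPM, from 2 to 6 reads with knockdown and 0 to 5 reads with LacZ (log2 fold change 1.02 ± 0.32, limma, adjusted p = 0.138). Gm25290 was the member called lower, at 0, 1.12 and 2.28 TPM against 1.38, 2.60 and 11.8 TPM, with 0 to 5 reads per knockdown liver.

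Members with more reads gave a tighter limit. The 77 WT members that averaged at least 20 reads per liver had 2 calls higher and none lower over all livers, where 9.09% and 6.94% of all genes were called. Without HuR KD 6 and LacZ 2 their log2 fold changes lay between −0.29 and 0.21 from the 10th to the 90th percentile, with a median of −0.02 and a median SE of 0.15, and 3 were higher and 4 lower (15.4% and 7.79% of all genes). In humanized livers the 21 such members had no call in either direction (3.6% and 7.87% of all genes). Their median was −0.18, their 10th and 90th percentiles were −0.37 and 0.39, and their median SE was 0.24. Without HuR KD 4 and LacZ 2, 2 were higher and 1 lower (4.57% and 11.2% of all genes), with a median of −0.25.

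Among the RNAs of pre-ribosomal RNA processing, which were found by gene name, no WT member was called over all livers. Members under Gm numbers were not searched for such RNAs, and no WT member had a U3, U14 or E3 name. Snord118 (U8), needed for maturation of the large subunit RNAs, was 97.8, 112 and 491 TPM with knockdown and 87.9, 131 and 192 TPM with LacZ. The 491 TPM was HuR KD 6, and without that liver and LacZ 2 its log2 fold change was −0.39 in place of 0.09 over all livers. In that fit it passed the unadjusted threshold as lower and not the adjusted one (limma, adjusted p = 0.148). Snord13 (U13), which takes part in acetylation of the small subunit RNA, was 123, 246 and 3231 TPM against 207, 257 and 342 TPM. Its log2 fold change went from 0.43 to −0.14 in the same step (limma, adjusted p = 0.746). Snora62 (E2) was 15.4, 22.9 and 159 TPM against 0, 19.5 and 22.3 TPM, where the 0 was LacZ 2, and its log2 fold change went from 1.38 to 0.19 (limma, adjusted p = 0.590). In humanized livers SNORD13 was 123, 88.5, 97.6 and 127 TPM against 131, 158, 109 and 171 TPM (log2 fold change −0.37 ± 0.19, limma, adjusted p = 0.496). The U14 and E3 rows there (SNORD14, SNORD14A, SNORD14E, SNORA63C and SNORA63D) held 0 to 11 reads per liver, too few to show a change of moderate size.

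In humanized livers 4 of 144 members were higher with knockdown (background 3.6% of all 12738 genes tested) and 10 were lower (background 7.87%), which were 2.78% and 6.94% of the members. None passed after adjustment (limma), against 0.212% of all genes, and 1 member had groups that did not overlap, against 7.16% of all genes. The median log2 fold change was −0.21 against −0.05 for all genes, while 60 members (41.7%) were above 0 against 42.7% of all genes. By class 5 of 56 H/ACA and 3 of 54 C/D members were lower, and 2 and 1 were higher. SCARNA23 had the smallest p, at 14.8, 11.2, 3.32 and 2.77 TPM with knockdown and 0, 2.80, 0 and 0 TPM with LacZ. Behind these stood 2 to 4 reads in each knockdown liver and 4 reads in LacZ 2, and the log2 fold change was 2.42 ± 0.59 (limma, adjusted p = 0.144). SNORA75 (ENSG00000206885.1) was the member whose groups did not overlap, at 0, 0, 0 and 7.90 TPM against 9.38, 8.64, 9.86 and 8.95 TPM. Its reads were 0, 0, 0 and 12 with knockdown and 5, 13, 5 and 2 with LacZ (log2 fold change −2.56 ± 0.65, limma, adjusted p = 0.155, two-sided exact permutation p = 0.029). With 1 liver left out, SNORA75 passed after adjustment without HuR KD 4 (limma, adjusted p = 0.000199) and SCARNA23 without LacZ 2 (limma, adjusted p = 0.0376), against 0.11% and 1.28% of all genes. HuR KD 4 held all 12 knockdown reads of SNORA75 and LacZ 2 all 4 LacZ reads of SCARNA23. Each omission left 1 group at 0 in every liver, and these passes follow from it. SCARNA23 averaged 8.02 TPM with knockdown and 0.700 TPM with LacZ, so it met the limit of 1 TPM only through the knockdown group. In HuR KD 1 and 2 a single read on a gene of 130 bases was worth 4.93 and 3.73 TPM, so a level near 5 TPM could have been missed there.

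The similar pair HuR KD 4 and LacZ 2 was also left out, as an alternative added after seeing the data. There the median log2 fold change was −0.14 against −0.08 for all genes. In that fit 9 members were higher (background 4.57%), 11 were lower (background 11.2%) and 2, SNORA75 and SCARNA23, passed after adjustment (background 0.777%). That fit had 3 livers a group. SCARNA23 (limma, adjusted p = 0.0438) was at 0 in all 3 LacZ livers left, so no fold is given. SNORA75 (limma, adjusted p = 0.00512) was at 0 in all 3 knockdown livers left and had 2 to 5 reads in each LacZ liver, so no fold is given for it either. Both passes follow from leaving out the livers that held the only contrary reads. SCARNA22 passed the unadjusted threshold in that fit and not over all livers. Over all livers it was 66.7, 93.0, 67.4 and 36.8 TPM with knockdown and 35.0, 31.3, 51.9 and 49.0 TPM with LacZ (log2 fold change 0.60 ± 0.28, limma, adjusted p = 0.457), with only HuR KD 4 inside the LacZ range.

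The raised liver, WT HuR KD 6, was compared member by member with the median of HuR KD 1 to 5, for the 108 members with at least 50 reads over those 5 livers. The median ratio was 2.46, and 62 members were at 2 or more, 22 at 5 or more and 9 at 0.5 or less. In the other 11 livers the same median ratio was 0.797 to 1.17. The increase was therefore wide but not uniform. Gm26202 (16.6), Snord65 (16.5), Snord13 (13.2), Snord32a (11.7) and Rnu73b (11.04) had the highest ratios, followed by Snord49a (10.8), Snord104 (10.1) and Snord49b (9.15). Snord65, printed above, had 101 reads in HuR KD 6 and 11 to 21 reads in each of HuR KD 1 to 5, although those libraries were more than 2 times as deep. In the opposite direction Gm25848 was 16.96 TPM in HuR KD 6 and 58.2 to 93.0 TPM in the other knockdown livers, a ratio of 0.223. Snora73b, the highest WT member, had a ratio of 0.565, and Gm25188 and Gm23233 had no read in HuR KD 6 and 6 to 15 reads in each of HuR KD 1 to 5. With no minimum of reads the 3 highest ratios were those of Snord82 (22.9), Gm22247 (17.1) and Gm26202, of which Snord82 rested on 24 reads and Gm22247 on 6 reads in HuR KD 6. Apart from these 3, Snord13, Snord104 and Snora73b, the RNAs named here were chosen after their values were seen.

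Short members were raised most. The median ratio was 3.33 for the 30 members under 100 bases, 2.39 for 14 from 100 to under 130 bases, 2.52 for 50 from 130 to under 150 bases and 1.79 for 14 of 150 bases and over. By name it was 4.04 for 22 C/D members, 4.08 for 12 H/ACA members, 1.60 for 13 scaRNAs and 2.37 for 61 members with other names. Across the 108 members the Spearman rho between length and ratio was −0.23, as a description, since all ratios share 1 library. Within the 58 members with the ACA end rho was −0.03, and within the 25 with C and D box letters it was −0.44. HuR KD 2 had a similar order at a smaller size, with medians of 1.62, 1.24, 0.961 and 0.711 in the same length classes, although its all-member sum was 18602 TPM. HuR KD 4 had the reverse order, with medians of 0.656, 0.680, 0.839 and 0.994. HuR KD 6 differed in other short RNA types too. Its snRNA sum was 27713 TPM against 7182 to 18283 TPM in the other 11 livers, its ribozyme sum 1205 TPM against 489 to 863 TPM, and its miRNA gene sum 5041 TPM against 16675 to 28280 TPM. Its protein-coding sum was 769964 TPM against 755509 to 775558 TPM, and it had the lowest Elavl1 value, 3.72 TPM. The part of these differences in the raised members was not tested.

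**Figure D3:**
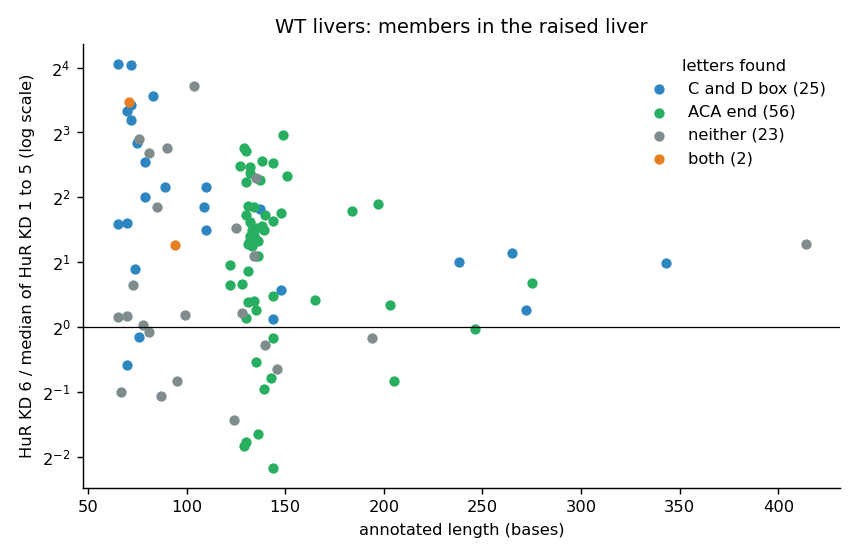
Ratio of HuR KD 6 to the median of HuR KD 1 to 5 (log scale) against annotated length in bases, with 1 point per WT member, coloured by the letters found at its ends. Most points lie above 1, and the highest (16.6 and 16.5) are under 100 bases, while 2 members at a ratio of 0 cannot be drawn on this axis.

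Host genes were found for 188 of the 211 WT members, by their place inside a gene on the same strand in GENCODE M21. Of these 178 lay wholly in an intron and 10 overlapped an exon of the host, where reads of the host mRNA and of the snoRNA may be shared. The 188 members lay in 151 hosts, 30 of them in hosts that encode ribosomal proteins. The share of hosts called higher exceeded the background. Of 149 hosts tested 38 (25.5%) were higher and 6 (4.03%) lower, against 9.09% and 6.94% of all genes. Without HuR KD 6 and LacZ 2, 61 (40.9%) were higher and 8 (5.37%) lower, against 15.4% and 7.79%. Hosts were more abundant than most genes, with a median of 20.8 TPM against 8.43 TPM for all genes tested, and no test of hosts as a set was made.

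The 8 hosts with the smallest p over all livers were 7 that were higher and 1 that was lower. Rps16, a ribosomal protein gene, which holds AF357399, had a log2 fold change of 0.47, Rpl7a, which holds Gm23969, had 0.32, Rpl3, which holds Snord83b, had 0.37, and Rpsa, which holds Snora62 and Gm26448, also had 0.37. Polr3c, an RNA polymerase III subunit, had 0.28, the elongation factor subunit Eef1b2 had 0.32 and the noncoding host 2410006H16Rik had 0.44. In the opposite direction Lclat1 had −0.35. Of the 48 members in hosts called higher 4 (8.33%) were called higher themselves, against 6.64% of all members and 9.09% of all genes, and their median log2 fold change was 0.34 against 0.27 for all members. Without HuR KD 6 and LacZ 2 the 84 members in hosts called higher had 6 calls higher (7.14%) and 1 lower (1.19%), against 5.21% and 3.79% of all members and 15.4% and 7.79% of all genes. Their median was then 0.03 against 0.02 for all members. Across 186 members the Spearman rho between the log2 fold changes of member and host was 0.18, and between their mean levels over 188 members it was 0.35, both as descriptions over points that share libraries. Rpsa holds 2 members. Over all livers Gm26448 was 317 to 538 TPM with knockdown and 360 to 526 TPM with LacZ, and Snora62 was 15.4 to 159 TPM and 0 to 22.3 TPM. The 159 TPM of Snora62 was HuR KD 6 and the 0 was LacZ 2. Without these livers its log2 fold change was 0.19 (limma, adjusted p = 0.590).

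The hosts of the members compared in HuR KD 6 were mostly below the other knockdown livers. For these 80 hosts the median ratio to HuR KD 1 to 5 was 0.858, with 17 above 1, and the 15 hosts of the members at 5 or more had ratios of 0.574 to 1.10. The host 2410006H16Rik was at 0.913 while its members Snord65, Snord49a and Snord49b were at 16.5, 10.8 and 9.15. Snhg3, the host of Snora73b, was at 0.400, the same side as its member. Some hosts were raised in that liver, most of all the noncoding Snhg9 at 4.88, whose member Snora78 was at 1.58, followed by Rpl37 at 1.43 and Odc1 at 1.35.

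**Figure D4:**
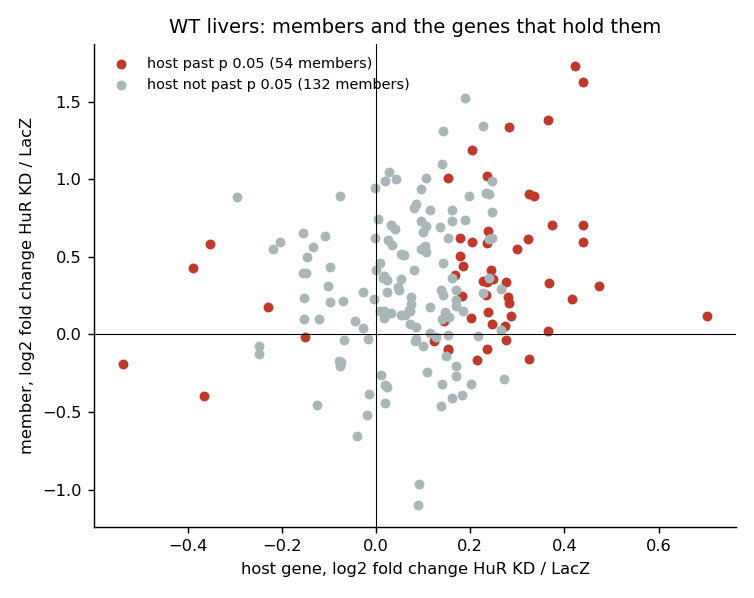
Log2 fold change (HuR KD / LacZ, all WT livers) of each member, on the vertical axis, against that of its host gene, on the horizontal axis, for 186 members, with hosts past an unadjusted p of 0.05 in red. Hosts lie between −0.54 and 0.70 and mostly to the right of 0, while members scatter from −1.10 to 1.73.

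The proteins that bind, assemble and trim these RNAs were counted next, as 30 listed genes. In WT livers 7 of 30 (23.3%) were higher with knockdown and none was lower, against 9.09% and 6.94% of all genes, and none passed after adjustment (limma). The 4 C/D core proteins had 2 calls, the methyltransferase Fbl (log2 fold change 0.33 ± 0.11) and Nop56 (0.42 ± 0.13). The 4 H/ACA core proteins had 2 as well, Nhp2 (0.25 ± 0.09) and Gar1 (0.51 ± 0.16). The nuclear exosome nucleases Exosc10 (0.31 ± 0.07) and Dis3 (0.39 ± 0.13), which trim snoRNA ends, and the assembly helicase Ruvbl1 (0.21 ± 0.09) were the others. Exosc10 was 16.96 to 21.1 TPM with knockdown and 14.2 to 17.9 TPM with LacZ, and had the smallest adjusted p of the list (limma, 0.0550, two-sided exact permutation p = 0.0043). Nop56 was 11.9 to 21.6 TPM against 10.2 to 13.7 TPM. Without HuR KD 6, in which 6 of the 8 core proteins were under the median of the other knockdown livers, 13 of 30 were higher against 12.4% of all genes. These included 7 of the 8 core proteins, all but Nop10 (0.06).

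In humanized livers 26 of the 30 were tested, and 1 was higher (3.85%) and 2 lower (7.69%), against 3.6% and 7.87% of all genes. RUVBL1 was 3.18 to 7.37 TPM with knockdown and 2.25 to 4.25 TPM with LacZ (log2 fold change 0.65 ± 0.25, limma, adjusted p = 0.369). NOLC1, the nucleolar and coiled-body phosphoprotein, had −0.40 ± 0.15 (limma, adjusted p = 0.365) and the nuclease XRN2 −0.44 ± 0.18 (limma, adjusted p = 0.380). None of the 7 core proteins tested there passed, with log2 fold changes of −0.34 to −0.06, and FBL was under the filter, reaching 1.62 TPM in 1 knockdown liver and 0.383 TPM in 1 LacZ liver and listed at 0 in the others. The tables were normalized apart, and the difference between WT and humanized livers was not tested.

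**Figure D5:**
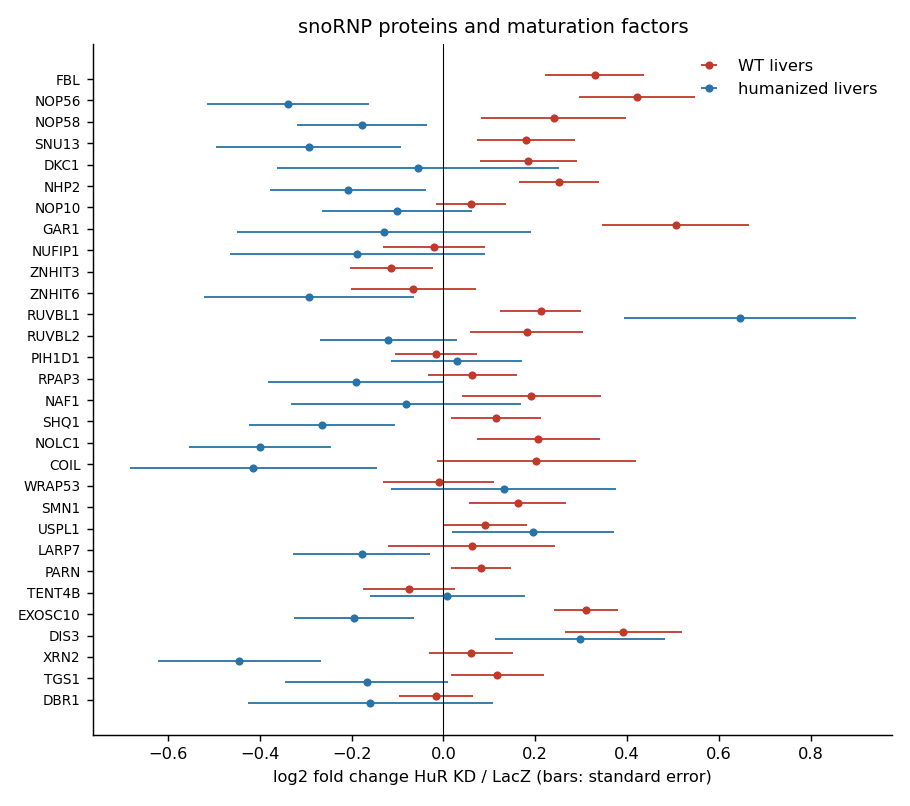
Log2 fold change (HuR KD / LacZ) with its standard error for the 30 snoRNP proteins and maturation factors, in WT livers (red) and, where tested, humanized livers (blue). The WT core proteins FBL to GAR1 lie between 0.06 and 0.51 and the humanized ones between −0.34 and −0.06.

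Members of both species were paired by gene name alone. Since 135 of the 211 WT members had other names, counterparts under such names were missed. Gm22486, with the RefSeq symbol Snord94, was not paired with the humanized member SNORD94 (140 TPM). There were 21 pairs. Over these the mean levels had a Spearman rho of 0.63 and a Pearson r of 0.77 on the log2 scale. Both are descriptions over genes of 2 separately normalized tables. Protein-coding genes held 28.9% to 37.8% of TPM in humanized livers and 75.6% to 77.6% in WT livers. Mitochondrial ribosomal RNA held 27.2% to 49.1% in humanized livers and 0 in WT livers. Levels in TPM are therefore on unlike scales and cannot be compared directly between the tables. SNORA73B stood near the top in both, at 1959 TPM in humanized and 1756 TPM in WT livers, as did SNORD17 at 1845 and 859 TPM. SNORD104 differed most in level among the high ones, at 12.8 TPM in humanized livers against 1264 TPM in WT livers, where HuR KD 6 alone raised the mean and the LacZ mean was 685 ± 97.9 TPM (SD, n = 6). SNORD13 was at 126 and 494 TPM, SNORA23 at 104 and 244 TPM and SNORD89 at 24.3 and 121 TPM. No symbol was called in both tables, and 2 were called in humanized livers, both lower with knockdown, SNORA20 (log2 fold change −1.24 ± 0.45) and SNORD4A (−2.11 ± 0.88). Their WT values were −0.32 ± 0.41 and 0.10 ± 0.47.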

How the data were processed

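RNA-seq of livers from 12 WT and 8 humanized mice was used. Per the labels and the study's methods, the authors trimmed the reads with cutadapt and Trim Galore, aligned them with HISAT2 to mm10, or to a combined human (GRCh38) and mouse reference for humanized livers, counted them per gene with featureCounts, and deposited 1 TPM table per species background. The kit kept strand, but the strand setting of the counting is not given in the sources used here, so reads of overlapping or antisense genes may be shared. Libraries were made from total RNA, for which recovery of RNAs shorter than the usual fragment can vary. Columns of per-sample values not used numbered 0.

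From the deposited TPM values, log2(TPM + 1) was fitted with limma 3.58.1 (R 4.3.3; eBayes with trend) over all genes with a mean of at least 1 TPM, without further scaling and separately for each table. Calls used an unadjusted p under 0.05, with Benjamini-Hochberg values over all genes tested beside them, and fold changes on this scale understate low genes. For single genes two-sided exact permutation tests were used, which cannot go below 0.029 for 4 against 4 or 0.0022 for 6 against 6. The p-values measure the spread between these livers.

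Whole reads were recovered from the TPM steps and gene lengths, within a tolerance of 0.003. This covered 99.996% of WT genes with values in at least 3 livers and 99.995% of humanized ones. The recovered length equalled the annotated one for 85.2% of WT genes with both, and for all 278 snoRNA and scaRNA genes among them. Humanized lengths were not checked in this way, and the shortest recovered for a member was 25 bases. A voom fit on the recovered reads was an alternative. In a test on simulated data 99.8% of 2903 genes gave the right reads. On data simulated from the WT table (15090 genes) and the humanized table (12738 genes), 200 genes each were shifted by 1.5 log2 units. They were drawn from the genes with a scatter below the median. All 200 were called, with 5.18% and 4.78% of the unchanged genes. Recovery of genes with a larger scatter, such as members with few reads, was not tested. Host genes, lengths and sequences came from GENCODE M21 (GRCm38), while the study's methods name M23. Human hosts and sequences were not analysed here, and some mouse sequences are not reported here.

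The members and the gene lists were chosen with earlier results of these data known. Genes named in the text were the 5 highest members, the 3 highest scaRNAs, those with the smallest p or with groups that do not overlap, those past the adjusted threshold, the RNAs of pre-ribosomal RNA processing, the 3 with the highest ratio in HuR KD 6 and the shared symbols with the highest level. Other names were chosen after their values were seen.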

Additional observations from a re-analysis of the deposited data

Results flagged for a closer look

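For each member named by the rule above or added after its values were seen, each listed factor and each class sum, the highest or lowest liver of a group was compared with the rest of its group, and 34 values stood far from the others in 148 groups. Chance alone flags about 1 in 20 groups where members are chosen without regard to their values. Some members here were chosen by their ratio in HuR KD 6, so their flags follow in part from that choice. The count therefore cannot be set against that rate. Of the 34, 20 were in WT HuR KD 6 and 6 in WT LacZ 2, the shallow libraries, whose part in the values was not tested.

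In WT HuR KD 6 the values far above the other knockdown livers were Gm22486 at 4194 TPM, Snord104 at 7038, Snord13 at 3231, Snord118 at 491, Snora62 at 159, Gm22009 at 1286, Snord82 at 64.4 and Gm22247 at 8.60 TPM. The same held for Gm26202 at 552, Snora23 at 684, Snord89 at 405, Gm24727 at 111, Snord65 at 263, Snord32a at 382, Rnu73b at 336 and Snord49a at 404 TPM. The sums over all members (50433 TPM), over C/D members (15926 TPM) and over members with other names (21345 TPM) stood apart too, and Gm27653 was alone at 0.

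In WT LacZ 2 Gm22247 (12.9 TPM), Gm25290 (11.8 TPM) and Snord32a (143 TPM) were far above the other LacZ livers, from 1, 1 and 7 reads. Rnu73b was at 0 there, and the factors Ruvbl1 (12.5 TPM) and Dis3 (3.94 TPM) were the lowest. In WT LacZ 1 Snora23 was at 336 TPM and Gm25848 at 111 TPM, above the other LacZ livers. In humanized livers SNORA75 was at 7.90 TPM in HuR KD 4 with 0 in the other knockdown livers, and SNORA63C at 3.49 TPM in the same liver. SNORD14 was at 5.38 TPM in HuR KD 2 and 6.01 TPM in LacZ 3, SCARNA23 at 2.80 TPM in LacZ 2, and the sum over all members at 12348 TPM in LacZ 3.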

How the results depend on the processing

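Shares of all genes called in either direction stand in parentheses. The number of WT members called was 15 (16%), and 8 with log2(TPM + 0.1) (15.6%), 6 with a mean of at least 5 TPM (19.6%) and 4 with voom on recovered reads (20%). In humanized livers it was 14 (11.5%), and 7 with a mean of at least 5 TPM (14.4%) and 1 with voom (10.6%). After adjustment it was 0 in both tables over all livers, 4 in WT with array weights, 1 without WT HuR KD 6, and 1 each without humanized HuR KD 4 and LacZ 2. The passes that came from leaving out a liver carry the limits given above. Leaving out 1 liver in turn gave 11 to 17 in WT (12.7% to 18.9%) and 8 to 22 in humanized livers (8.62% to 15.3%). With the replicate number as a replicate block the counts were 16 (14.9%) and 22 (11%), but the labels do not say that same-numbered livers are paired, and their deviations did not move together, with correlations of −0.142 to 0.206 in WT and −0.249 to 0.137 in humanized livers. Over the same shares of all genes, hosts called numbered 44, 81 with array weights (27.9%), 69 without HuR KD 6 and LacZ 2 (23.2%), and 33 to 63 leaving out 1 liver. Factors called in WT numbered 7, 16 with array weights, 15 without both livers, 6 to 13 leaving out 1 liver and 0 after adjustment. In humanized livers they numbered 3, 1 with median-of-ratios factors (13.1%), 0 with voom, 0 to 4 leaving out 1 liver and 0 after adjustment. The ELAVL1 change of −0.59 did not pass after adjustment. The WT ratio of sums went from 1.27 to 1.01 without HuR KD 6.

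Some single members changed sign. With array weights SNORD3A stood at −0.018, SNORD3C at −0.026, Gm22486 at −0.10, Gm22442 at −0.0015, Snord13 at −0.12 and Snord118 at −0.31. Without the pair of livers SNORD3A was at −0.14, SNORD3C at −0.15, Gm22486 at −0.11, Snord13 at −0.14 and Snord118 at −0.39. Gm22442 was at −0.0072 with median-of-ratios factors and −0.0099 with quantile normalization, and Snord118 at −0.16 with voom. Leaving out 1 liver gave −0.092 to 0.29 for SNORD3A, −0.083 to 0.19 for SNORD3C, −0.052 to 0.94 for SNORD3B-1, −0.14 to 0.038 for Snora73b, −0.15 to 0.27 for Gm22486, −0.019 to 0.051 for Gm22442, −0.22 to 0.72 for Snord13 and −0.27 to 0.20 for Snord118. The cause was not tested, except that leaving out a liver or raising the filter uses fewer livers or genes. Few reads per member, and 50 to 75 base reads on RNAs this short, limit all of these values.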
